A study of Rattus norvegicus with 8 samples.

Results

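Mcpt1l1 (ENSRNOG00000053494), Cpa3 (ENSRNOG00000011181) and Cma1 (ENSRNOG00000020563) encode proteases that mast cells store in their granules. They are 3 of the 32623 rat genes whose reads were counted in the dorsal root ganglion (DRG), the cluster of sensory neuron cell bodies beside the spinal cord. The 3 genes were chosen from the study's list of genes whose response to nerve injury differed between the sexes in these same libraries. Their own values are therefore given as a description, without a test of any of them.

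The tissue came from adult, gonadally intact Sprague Dawley rats in 4 groups of 2, naïve or CCI, of either sex. In chronic constriction injury (CCI) the sciatic nerve was exposed through the thigh muscle and tied loosely with silk sutures. Naïve rats had no operation, so skin and muscle damage cannot be told apart from nerve injury. The ipsilateral L4-L6 ganglia of 1 rat, taken on day 14, made 1 library, and rats whose behaviour did not meet the authors' criteria had not been used. The stage of estrus was not determined in females.

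Mast cells are immune cells of connective tissue, and in peripheral nerves and ganglia they lie in the sheaths and around vessels. Their granules hold histamine, heparin and proteases, which are set free together when the cell degranulates. Cma1 and Mcpt1l1 belong to the chymases, a group of serine proteases, and Mcpt1l1 is named as a gene like rat mast cell protease 1. Cpa3 is a zinc carboxypeptidase that removes amino acids from the end of peptides such as neurotensin, and in the granule it is stored with chymase on heparin. Transcription factors of the GATA family are known to act on mast cell genes.

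In the RefSeq annotation of GRCr8, a later assembly than the rn6 genome used for the counts, Cma1 and Mcpt1l1 lay on chromosome 15 in 1 cluster with 23 annotated genes between them, of which 14 were protein-coding, and 9 of these 14 had symbols starting with Mcpt. Cpa3 lay on chromosome 2. The windows around the start sites are shown because the 3 genes, on 2 chromosomes, had nearly the same profile over the 8 libraries. Each window runs from 250 bases before the annotated start site to 50 bases after it, is written 5′ to 3′ in the direction of the gene and comes from RefSeq (GRCr8). Capitals mark the words a GATA factor can bind, on either strand. They are AGATAA and, as its variant, AGATAG, then TGATAA and, as its variant, TGATAG. The windows are chr15:33876846-33877145 on the minus strand for Mcpt1l1, chr2:104673188-104673487 on the minus strand for Cpa3, chr15:33390084-33390383 on the minus strand for Cma1 and chr15:33841356-33841655 on the plus strand for Mcpt1, the paralog shown for comparison.
Mcpt1l1: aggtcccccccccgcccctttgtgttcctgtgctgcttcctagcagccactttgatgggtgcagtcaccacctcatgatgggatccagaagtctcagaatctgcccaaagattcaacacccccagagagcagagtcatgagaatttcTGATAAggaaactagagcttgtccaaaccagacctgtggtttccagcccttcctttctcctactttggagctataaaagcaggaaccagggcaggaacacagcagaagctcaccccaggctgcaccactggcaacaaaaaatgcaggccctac
Cpa3: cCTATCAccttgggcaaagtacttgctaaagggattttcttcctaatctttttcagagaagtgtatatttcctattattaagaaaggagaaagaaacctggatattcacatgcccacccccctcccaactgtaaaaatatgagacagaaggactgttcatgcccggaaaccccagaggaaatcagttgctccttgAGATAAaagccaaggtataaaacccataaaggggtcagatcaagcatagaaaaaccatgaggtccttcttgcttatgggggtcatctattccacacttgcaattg
Cma1: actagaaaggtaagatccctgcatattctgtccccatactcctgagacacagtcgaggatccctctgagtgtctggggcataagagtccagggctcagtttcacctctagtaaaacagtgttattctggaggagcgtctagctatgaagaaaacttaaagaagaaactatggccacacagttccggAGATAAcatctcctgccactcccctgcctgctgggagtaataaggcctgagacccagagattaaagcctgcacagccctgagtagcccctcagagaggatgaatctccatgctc
Mcpt1: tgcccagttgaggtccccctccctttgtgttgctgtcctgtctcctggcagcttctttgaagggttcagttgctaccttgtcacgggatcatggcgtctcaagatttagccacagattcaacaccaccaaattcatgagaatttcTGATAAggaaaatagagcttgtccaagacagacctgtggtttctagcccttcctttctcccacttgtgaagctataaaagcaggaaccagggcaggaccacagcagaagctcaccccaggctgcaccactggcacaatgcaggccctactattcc

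All 3 genes held at least 1 of these GATA words, as did 30.3% of 33469 rat promoters of the same length. The word TGATAA began 103 bases before the start site of Mcpt1l1, and AGATAA began 55 bases before that of Cpa3 and 64 bases before that of Cma1. Cpa3 held another, TGATAG on the opposite strand, 249 bases before the start site. The TATA word TATAAA, searched on both strands and present in 14.2% of promoters, was found 32 bases before the start of Mcpt1l1 and 40 bases before that of Cpa3. It was not in the window of Cma1. The word CATGTG, searched on both strands together with its variant CACGTG, which factors such as MITF can bind, was found in 19.7% of promoters and, among the 3 genes, in Cpa3 alone, as CATGTG on the opposite strand 144 bases before the start. No match overlapped a match to another of the motifs. Such matches describe the letters in these windows and are not evidence of binding. The windows of Mcpt1l1 and Mcpt1 were identical in 77.9% of aligned columns, against 48.2% to 54.2% for every other pair. Reads of Mcpt1l1 may have been shared with such near copies, so its counts are uncertain as counts of 1 gene.

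The 3 genes were weakly expressed in every group, and in CCI males their levels were lower than in any other group. Levels are given as CPM, the deposited counts divided by a library's total, which edgeR's TMM factor adjusts for composition, and given per 1000000 counts. Counts summed over the 8 libraries were 826 for Mcpt1l1, 386 for Cpa3 and 268 for Cma1, out of 39489103 to 60818457 counts per library. All 3 passed the filter on low counts that left 16988 genes for the fits, and 22.3%, 16.2% and 12.7% of those genes had a lower mean log2 CPM than Mcpt1l1, Cpa3 and Cma1. Mcpt1l1 and Cpa3 had at least 10 counts in 8 of 8 libraries and Cma1 in 6 of 8. The exceptions were both CCI males. As no transcript lengths were used, levels are not compared between the 3 genes.

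Mcpt1l1 had 158 and 180 counts in the naïve males, which is 3.02 and 3.30 CPM. The CCI males had 30 and 23 counts, or 0.514 and 0.475 CPM. In females the naïve rats had 81 and 93 counts, or 1.71 and 2.20 CPM, and the CCI rats had 131 and 130 counts, or 3.39 and 3.33 CPM. Both CCI males thus lay below the other 6 libraries. Group means were 3.16 ± 0.198 CPM in naïve and 0.494 ± 0.0279 in CCI males, and 1.96 ± 0.344 in naïve and 3.36 ± 0.0420 in CCI females (SD, n = 2 rats each). In ascending order the groups were CCI males, naïve females, naïve males and CCI females, and no 2 neighbours in that order overlapped. The gap between the naïve males and the CCI females was smaller than the counting error of a single library. The 95% exact Poisson interval of naïve male 2 was 2.84 to 3.82 CPM and that of CCI female 2 was 2.78 to 3.95 CPM.

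Cpa3 had 67 and 88 counts in the naïve males, or 1.28 and 1.61 CPM. Each CCI male had 12 counts, or 0.206 and 0.248 CPM. The naïve females had 52 and 47 counts, or 1.10 and 1.11 CPM, and the CCI females had 53 and 55 counts, or 1.37 and 1.41 CPM. The CCI males again lay below all other libraries, and the CCI females fell between the 2 naïve males. Means were 1.45 ± 0.235 CPM in naïve and 0.227 ± 0.0297 in CCI males, and 1.11 ± 0.00843 in naïve and 1.39 ± 0.0265 in CCI females (SD, n = 2). The order was CCI males, naïve females, CCI females and naïve males, in which the last 2 groups overlapped.

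Cma1 had 39 and 67 counts in the naïve males, or 0.746 and 1.23 CPM, and this was its widest spread within a group on the CPM scale. The CCI males had 3 and 8 counts, or 0.0514 and 0.165 CPM. Each naïve female had 32 counts, or 0.676 and 0.756 CPM, and the CCI females had 45 and 42 counts, or 1.16 and 1.07 CPM. Means were 0.987 ± 0.342 CPM in naïve and 0.108 ± 0.0804 in CCI males, and 0.716 ± 0.0566 in naïve and 1.12 ± 0.0625 in CCI females (SD, n = 2). The order was the same as for Mcpt1l1, but only the CCI males were clear of the next group. The naïve males spanned values from the naïve females to above the CCI females.

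**Figure D1:**
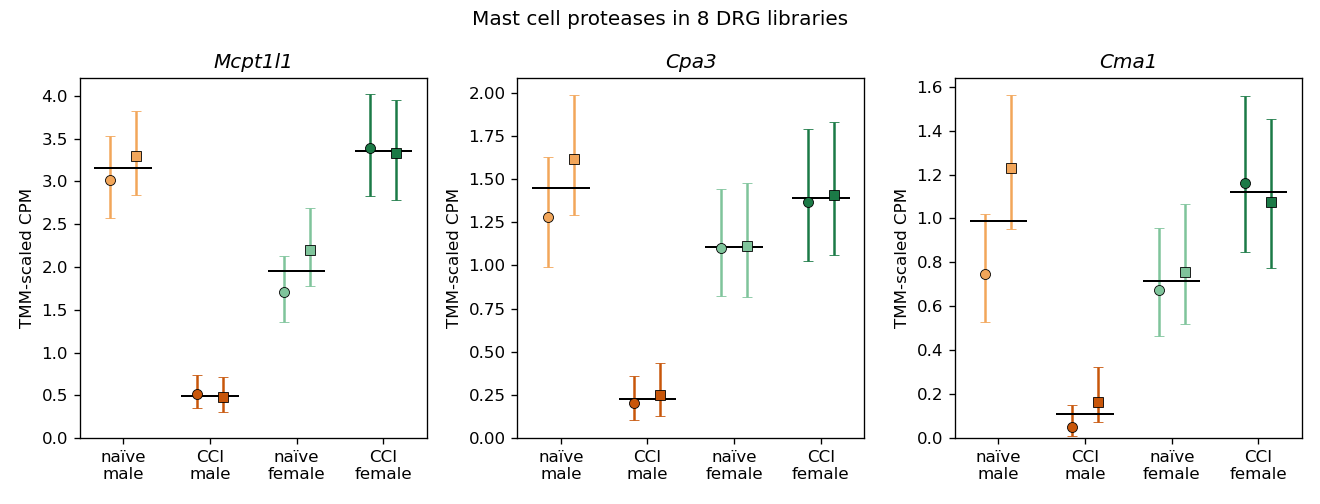
TMM-scaled CPM (linear axis from 0, one scale per gene) of the 3 genes in each library, with the circle for replicate 1, the square for replicate 2, vertical bars for the 95% exact Poisson interval of the count and black lines for group means. Both CCI males are the lowest libraries for each gene, at 0.475 to 0.514 CPM for Mcpt1l1, 0.206 to 0.248 for Cpa3 and 0.0514 to 0.165 for Cma1.

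Comparing CCI with naïve males addressed the effect of the injury in males. The summed counts of Mcpt1l1, scaled for library size, were 6.38-fold higher in naïve than in CCI males, with a 95% interval of 4.76 to 8.69 that covers counting error only. The fold was 6.46 (4.18 to 10.4) for Cpa3 and 9.64 (5.17 to 19.9) for Cma1. The fitted log2 fold change (log2FC) of CCI over naïve males was -2.67 (SE 0.20) for Mcpt1l1, -2.66 (SE 0.31) for Cpa3 and -3.19 (SE 0.64) for Cma1. In each of the 3 genes both CCI males lay below both naïve males, as they did in 36.6% of all genes tested. Few genes had a lower log2FC, namely 94 of 16988 for Mcpt1l1, 95 for Cpa3 and 44 for Cma1, and the middle 90% of genes lay between -1.25 and 0.79. Leaving out 1 CCI male moved the fold most for Cma1, whose log2FC was -2.56 without CCI male 1 and -4.21 without CCI male 2. In whole ganglia, fewer mast cells and less of these RNAs per mast cell cannot be told apart.

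Comparing CCI with naïve females addressed the same question in females, where the differences were small and in the opposite direction. Scaled summed counts in CCI females were 1.73-fold (1.42 to 2.11) those in naïve females for Mcpt1l1, 1.26-fold (0.948 to 1.67) for Cpa3 and 1.57-fold (1.12 to 2.20) for Cma1. Counting error alone therefore spanned no difference for Cpa3. The log2FC was 0.77 (SE 0.23) for Mcpt1l1, 0.32 (SE 0.29) for Cpa3 and 0.63 (SE 0.33) for Cma1. Both CCI females lay above both naïve females in each of the 3 genes, as they did in 30.5% of all genes tested. These values were not far out among all genes, since 779 genes had a higher log2FC than Mcpt1l1, 1070 a higher one than Cma1 and 2673 a higher one than Cpa3.

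**Figure D2:**
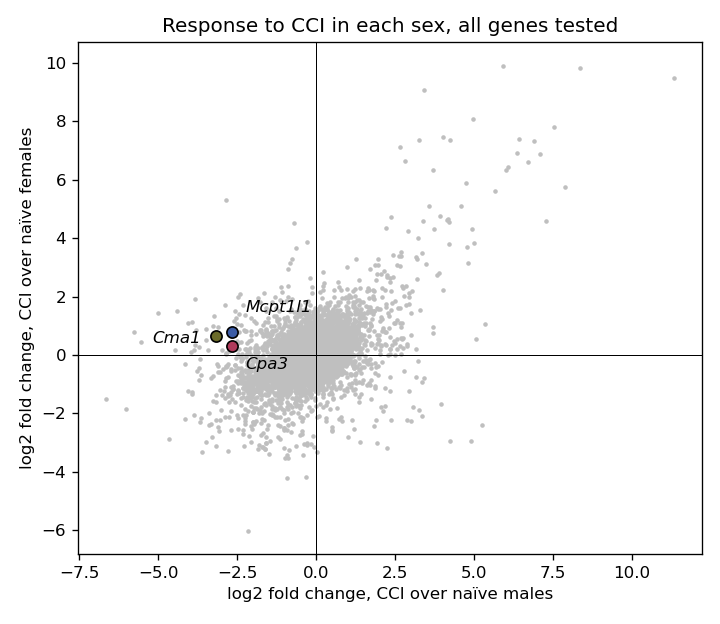
Fitted log2FC of CCI over naïve rats in males (horizontal axis) and in females (vertical axis) for the 16988 genes tested (grey), with the 3 protease genes in colour. The 3 genes lie together at -3.19 to -2.66 in males and 0.32 to 0.77 in females.

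A log2FC of -2 or lower in males was fitted for 269 genes (1.58% of those tested). Of these, 70 genes (0.412%) had a log2FC of 0 or higher in females, and 14 of the 70 had a gene symbol here. Mcpt1l1, Cpa3 and Cma1 were 3 of the 14. As the symbols came from lists chosen by the study on these libraries, that share has no further reading.

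In naïve rats the 3 genes were somewhat lower in females than in males. The scaled summed counts of naïve females were 0.614 (0.508 to 0.739) of those of naïve males for Mcpt1l1, 0.761 (0.586 to 0.986) for Cpa3 and 0.720 (0.519 to 0.991) for Cma1. The log2FC of naïve females over naïve males was -0.69 (SE 0.22), -0.39 (SE 0.27) and -0.46 (SE 0.37) in that order. The sexes did not overlap in Mcpt1l1 and Cpa3, where females were lower, a pattern seen in 30.5% of all genes, and they overlapped in Cma1. The Cma1 difference rested on naïve male 2, without which the log2FC was -0.054, and that of Cpa3 was -0.21 without the same library.

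After CCI the order of the sexes was the reverse. The scaled summed counts of CCI females were 6.76-fold (5.02 to 9.27) those of CCI males for Mcpt1l1, 6.18-fold (3.94 to 10.1) for Cpa3 and 10.9-fold (5.78 to 22.6) for Cma1. The log2FC was 2.76 (SE 0.23), 2.61 (SE 0.32) and 3.38 (SE 0.55). Both CCI females lay above both CCI males in each of the 3 genes, as in 24.7% of all genes tested. Only 30, 38 and 21 genes had a higher log2FC than Mcpt1l1, Cpa3 and Cma1. For Cma1 the log2FC ranged from 2.74 to 4.38 as the CCI males were left out in turn.

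The interaction of sex and CCI is the log2FC after CCI in females minus that in males, and it is the measure by which the study picked these genes. It was 3.45 (SE 0.30) for Mcpt1l1, 2.99 (SE 0.38) for Cpa3 and 3.84 (SE 0.69) for Cma1. Over all genes tested the middle 90% lay between -0.70 and 1.08, and 53, 75 and 40 genes had a higher value. The comparisons share libraries, so the 5 values of a gene are not separate pieces of evidence.

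**Figure D3:**
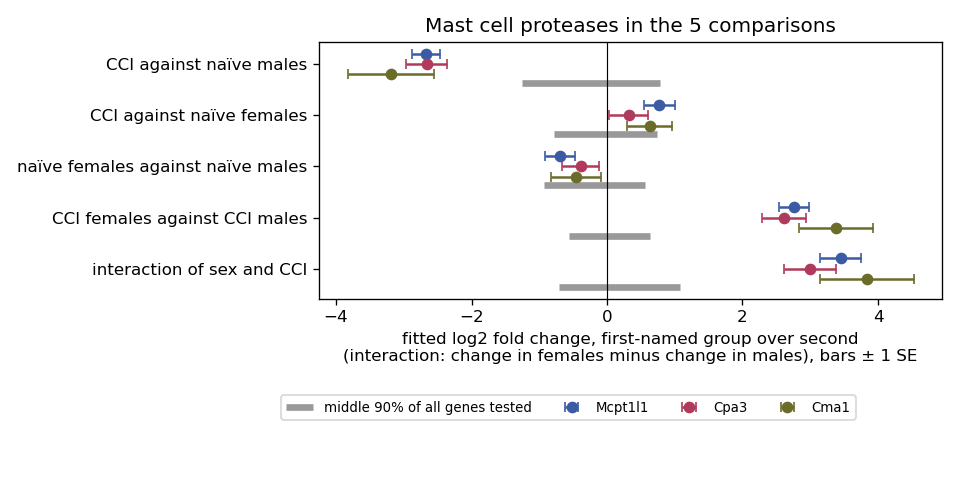
Fitted log2FC (points, ± 1 SE) of the 3 genes in the 4 comparisons of groups and in the interaction of sex and CCI, with grey bars for the middle 90% of the 16988 genes tested. The 3 genes lie outside the grey bar in the comparison of males, in that of the sexes after CCI and in the interaction, and inside it in females and in naïve rats, apart from Mcpt1l1 in females, whose 0.77 is just above the bar's end at 0.74.

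Although the sum of the 3 genes differed severalfold between groups, the counting intervals of their proportions overlapped in all 8 libraries. Summed over the 3 genes, the naïve males had 264 and 335 counts, the CCI males 45 and 43, the naïve females 165 and 172 and the CCI females 229 and 227. Mcpt1l1 held 49.1% to 66.7% of a library's counts for the 3 genes, Cpa3 23.1% to 31.5% and Cma1 6.67% to 20.0%. The lowest share of Cma1, 6.67%, was 3 of the 45 counts of CCI male 1. For each gene the 95% exact binomial intervals of all 8 libraries had values in common, from 53.7% to 57.0% for Mcpt1l1, 24.5% to 29.2% for Cpa3 and 15.8% to 18.3% for Cma1. With 43 to 45 counts in a CCI male, a modest shift in proportion in that group was not detectable at this depth.

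**Figure D4:**
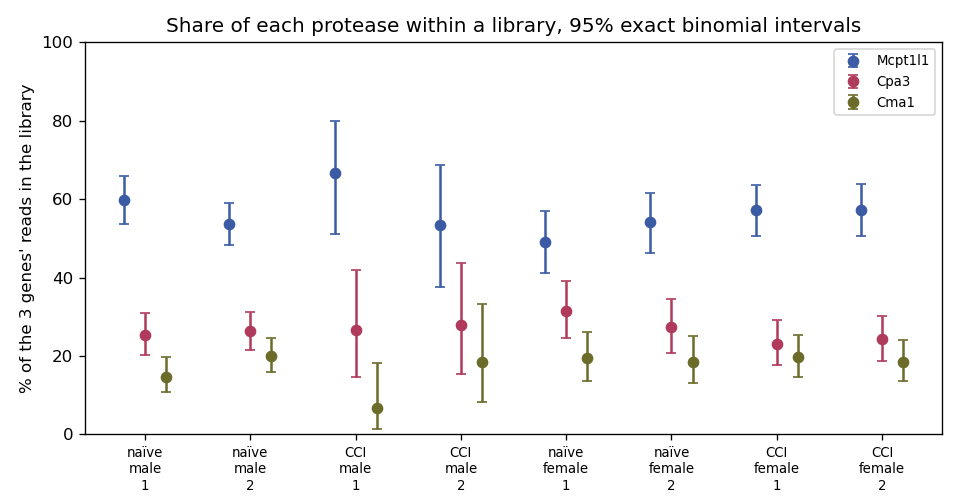
Share of each gene in the summed counts of Mcpt1l1, Cpa3 and Cma1 (percent, vertical axis) in each of the 8 libraries, with 95% exact binomial intervals. Mcpt1l1 holds 49.1% to 66.7% in every library, and the intervals are widest in the CCI males, which have 45 and 43 counts.

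Likeness to the mean profile of the 3 genes was measured as the root mean square distance of centred log2 CPM over the 8 libraries. The members themselves came nearest of all 16988 genes, with distances of 0.13 for Cpa3, 0.18 for Mcpt1l1 and 0.24 for Cma1, against a median of 1.14 over all genes. As they form that profile and were chosen for a like difference between the sexes, these ranks were favoured in advance and have no further reading. Of the next 10 genes 3 had a symbol. The nearest was LOC100363289, at 0.37, with 1.10 ± 0.126 CPM in naïve and 0.0738 ± 0.0168 in CCI males, and 0.629 ± 0.187 in naïve and 0.810 ± 0.0852 in CCI females (SD, n = 2). Genes without a symbol came between LOC100363289 and Trim45, which encodes a tripartite motif protein and was at 0.55. Trim45 had 12.6 ± 0.0391, 4.50 ± 0.351, 15.3 ± 0.910 and 14.9 ± 6.77 CPM in the same order of groups. Npas2, which encodes a circadian transcription factor, was at 0.56, with 6.50 ± 0.535, 1.23 ± 0.0236, 4.46 ± 1.79 and 3.28 ± 0.151 CPM. Trim45 and Npas2 had a log2FC below 0 in females, at -0.05 and -0.45.

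**Figure D5:**
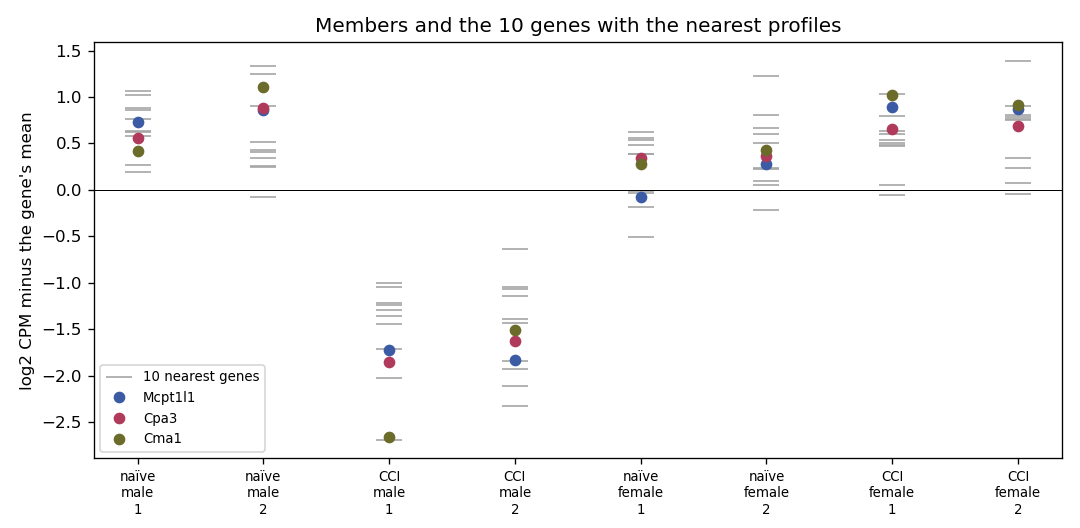
Log2 CPM minus the gene's mean over the 8 libraries (vertical axis) in each library, for the 3 genes (coloured points) and the 10 genes with the nearest profiles (grey dashes). All 13 genes are below their own mean in both CCI males, and the 3 proteases are near or above it in every other library.

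Of 45 mast cell genes listed for this work, the 3 proteases alone had an identifier among the sources used here. Kit, Fcer1a, Ms4a2, Hdc, Gata2, Tpsab1, Tpsb2 and Ctsg, which include the receptors, the histamine-forming enzyme and the tryptases of mast cells, were not analysed here, nor were the other genes of the chymase cluster. Of 9 defining markers only Cpa3 and Cma1 could be read. The label of mast cell protease thus rests on the gene names. For the lists that follow, identifiers came from genes that the study had listed, mostly for a change in these libraries, so their counts are not independent evidence of a direction. A gene was called when the adjusted p of edgeR's quasi-likelihood test was under 0.05 and, between groups, its absolute log2FC was above 0.5.

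Kitlg, which encodes stem cell factor, the ligand of the mast cell receptor Kit, was the 1 gene with an identifier among 13 growth and recruitment signals. Its level was 117 ± 6.14 CPM in naïve and 191 ± 18.2 in CCI males, and 160 ± 10.6 in naïve and 193 ± 6.30 in CCI females (SD, n = 2). Kitlg rose in males (log2FC 0.71, SE 0.09, adjusted p = 0.00712), against 9.05% of all genes called higher. In females its log2FC was 0.26 (adjusted p = 0.0910), and the interaction was -0.43 (adjusted p = 0.0993). Kitlg was above both naïve groups in the CCI males, where the proteases were lowest, and in the CCI females, where they were not. Its log2FC of CCI females over CCI males was 0.03, and a link between Kitlg and the proteases was not tested.

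Among 21 substrates, inhibitors and receptors of the proteases, 8 had an identifier, and 5 of the 8 rose in males and none fell, against 9.05% of all genes called higher and 12.5% called lower. The median log2FC of the 8 was 0.98, against -0.01 over all genes. Nts, the precursor of neurotensin, which carboxypeptidase A3 degrades, rose from 0.654 ± 0.0602 to 3.32 ± 0.373 CPM in males (log2FC 2.34, adjusted p = 0.00565). In females it was 1.38 ± 0.144 CPM in naïve and 2.13 ± 0.167 in CCI rats (log2FC 0.62, adjusted p = 0.167). The interaction for Nts was -1.71 (adjusted p = 0.0483). Vip, the precursor of vasoactive intestinal peptide, rose in males from 0.216 ± 0.0725 to 10.9 ± 0.645 CPM and in females from 0.540 ± 0.106 to 26.7 ± 0.408 CPM, with a log2FC of 5.65 and 5.62. Serpina3n, a serine protease inhibitor of a family with several near copies in rodents, rose with a log2FC of 4.95 in males (adjusted p = 0.00565) and 8.10 in females (adjusted p = 0.00129). Its 2 CCI females differed widely, with 520 and 1462 counts. The naïve rats had 9 and 13 counts in males and 3 and 5 in females, so both folds rest on few naïve counts.

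Tac1, the precursor of substance P, and Calca, that of calcitonin gene-related peptide, rose in males with a log2FC of 1.05 and 0.91. In females, where 3.69% of all genes were called higher, Vip and Serpina3n were the 2 of 8 that rose, and the median of the 8 was 0.45 against -0.02 over all genes. No gene of the 8 was called between naïve females and naïve males, where 0.0706% of all genes were. With edgeR over all 8 libraries, which raised the calls over all genes from 12 to 906, Nts (1.07) and Vip (1.31) were called higher in females. After CCI only Vip was called between the sexes, with a log2FC of 1.29 in females over males (adjusted p = 0.00369), against 0.524% of all genes called higher. Without CCI female 1 or CCI female 2, which leaves 1 rat in that group, the log2FC of Vip was 1.28 and 1.31. Serpina3n, at a log2FC of 1.98, was called as well with DESeq2 and without a filter on low counts. These settings raised the calls over all genes from 180 to 367 and 297. For the interaction, Nts was called lower and Fn1, encoding fibronectin, higher at 0.66 (adjusted p = 0.0483), against 0.547% and 1.04% of all genes.

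Of 13 receptors for histamine, serotonin, prostaglandin D2 and cysteinyl leukotrienes, only Htr3a and Htr3b, the subunits of the serotonin-gated channel, had an identifier. Both rose in males, with a log2FC of 0.59 (SE 0.07) for Htr3a and 0.70 (SE 0.07) for Htr3b, against 9.05% of all genes called higher. In females they were at -0.07 and -0.04, and the interaction was called for both, at -0.65 (adjusted p = 0.0430) and -0.72 (adjusted p = 0.0483), against 0.547% of all genes called lower. For these 3 lists, the 8 calls in males and the 4 in the interaction rested on 2 rats a group. Fits without 1 library leave 1 rat in a group, so no call is read from them. Without CCI male 1 the 8 genes called in males had a log2FC of 0.61 to 5.59. The interaction of Nts, Fn1, Htr3a and Htr3b kept its sign with each library left out in turn. With DESeq2 the interaction calls over all genes rose from 270 to 1585. They then also included Kitlg (-0.44), Serpina3n (3.18), Tac1 (-0.63) and Calca (-0.66).

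Markers of other cell types differed between the same groups. Of 9 connective tissue markers 5 had an identifier, and their summed level was 2843 to 2985 CPM in naïve and 1782 to 1832 in CCI males, and 2639 to 2782 in naïve and 2493 to 2521 in CCI females. Among these, 4 of 5 fell in males, where 12.5% of all genes were called lower, and none was called in females, with a median log2FC of -0.65 and -0.09. The marker not called in males was Dpt, whose log2FC was 0.69 in males and -0.68 in females. The 4 of 9 Schwann cell and satellite glia markers read here summed to 7988 to 9699, 2236 to 2331, 5371 to 6703 and 2560 to 3515 CPM in the same order of groups, and 4 of the 4 fell in males and 2 of the 4 in females, where 2% of all genes were called lower. The 6 of 10 sensory neuron markers summed to 16834 to 19096, 27706 to 28476, 20495 to 21206 and 21666 to 25964 CPM. In males 6 of the 6 were called higher, against 9.05% of all genes, and in females 1 of the 6, against 3.69%. Their median log2FC was 0.66 in males and 0.20 in females. Calca is also among these markers. The part of neurons in the rises of Kitlg, Tac1, Calca, Htr3a and Htr3b in males was not tested.

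Adipocyte markers (2 of 6) were at 0.642 to 0.746 CPM in naïve males and 4.54 to 5.17 in CCI males, and at 1.09 to 9.32 in naïve and 1.25 to 2.20 in CCI females. Skeletal muscle markers (2 of 8) were at 5.35 to 7.34 CPM in naïve and 23.3 to 25.2 in CCI males, and 4.23 to 4.88 in naïve and 2.25 to 2.51 in CCI females. Smooth muscle markers (3 of 5) were at 28.7 to 32.8, 47.8 to 53.2, 26.3 to 43.5 and 22.4 to 23.8 CPM in that order. All 2, 2 and 3 of these genes were called higher in CCI than in naïve males, where 9.05% of all genes were. This was the opposite direction to the proteases. In females Casq1 of skeletal muscle and Actg2 of smooth muscle were called lower, where 2% of all genes were. The part of these tissues, of connective tissue and of glia in the protease differences was not tested.

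Red cell markers (5 of 5) summed to 127 CPM in naïve male 1 and 1362 in naïve male 2, and the 3 proteases summed to 5.05 and 6.14 CPM in the same libraries. In CCI males they were at 218 to 247 CPM, in naïve females at 1328 to 1995 and in CCI females at 164 to 208. The 3 proteases summed to 0.771 to 0.887, 3.49 to 4.07 and 5.81 to 5.92 CPM in those groups, and the part of blood in the protease differences was not tested. Other blood and immune lists were thinly covered. Cd163, the 1 of 10 macrophage markers read, was at 2.08 to 2.15 CPM in naïve and 1.54 to 1.90 in CCI males, and 3.64 to 5.25 in naïve and 5.71 to 5.96 in CCI females. Prg2, the 1 of 5 eosinophil markers, was at 0.841 to 1.36, 1.03 to 1.15, 2.90 to 3.05 and 1.01 to 1.79 CPM. Ngp of neutrophils (1 of 7) and Cd79b of B cells (1 of 4) fell after CCI in females and were not called in males. In females 2% of all genes were called lower. The 2 naïve males differed widely, at 4 and 112 counts for Ngp and 4 and 74 for Cd79b. None of the basophil, T cell and endothelial markers had an identifier, and none of the markers read was at 0 throughout a group. The reads came from 2 sequencing batches. The labels do not say which library belonged to which, so whether batch coincided with group is not known, and batch was not modelled. The authors resequenced samples from both batches together to look for batch effects, and they applied no correction.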

How the data were processed

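The deposited table gives raw read counts that the authors obtained per Ensembl gene with featureCounts from poly(A) strand-specific libraries, after aligning paired-end reads to rn6 with HISAT2 and removing ribosomal RNA reads. The submitters' processing notes also name CASAVA 1.8.2. The strand setting and the handling of reads that match several genes were not given in the sources used here. All 8 columns were used, with 2 rats per group. They were matched to the labels by name, and those of replicate 1 of the naïve and of the CCI males carry an extra letter that the labels do not have. Total counts were 39489103 to 60818457, and intervals on counts and shares (95%, exact) cover counting error only, since the reads carry no molecular identifiers.

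Analyses used R 4.3.3 with edgeR 4.0.16. Genes were kept by filterByExpr (minimum count 10, minimum total count 15), which left 16988 of 32623, and TMM factors gave CPM. Log2 CPM used a prior count of 2. Each comparison was fitted on the 4 libraries concerned, and the interaction on all 8, with the quasi-likelihood test of edgeR, and p-values were adjusted over all genes tested (Benjamini-Hochberg). Each SE was obtained as the absolute log2FC over the root of its F statistic. With 2 rats a group the smallest exact two-sided p is 0.333, so adjusted p-values rest on a spread shared across genes.

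The members, lists and tests were chosen with earlier results of these data known. The 3 proteases were described in full. Of the related lists every called gene was named, and of the 10 genes nearest in profile those with a symbol. Symbols were available for 1961 identifiers, from the study's gene lists. No mast cell list gene other than the 3 proteases had one, so the planned count of such genes has no value. Alternatives were DESeq2 1.42.0, edgeR over all 8 libraries, DESeq2's size factors, no filter, at least 10 counts in every library, a block for the replicate number, and each library left out in turn. The version 4 quasi-likelihood fit was chosen after seeing the data. The edgeR fits of the 5 comparisons had first been run on simulated counts, with changes in CCI males only and the same spread for every gene. That run does not measure how accurate the fits are on these data.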

Additional observations from a re-analysis of the deposited data

Results flagged for a closer look

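Mcpt1l1, Cpa3 and Cma1 are listed because both CCI males lay below both naïve males, as in 36.6% of all genes tested, while both CCI females lay above both naïve females, as in 30.5%. The share of all genes that met both conditions together was not counted. The interaction of sex and CCI, as a log2FC, was 3.45 for Mcpt1l1, 2.99 for Cpa3 and 3.84 for Cma1. As the genes were picked for this difference in the same libraries, it was not tested.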

How the results depend on the processing

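The 15 log2FC values of the 3 proteases were refitted with DESeq2, with edgeR over all 8 libraries, with DESeq2's size factors, without a filter, with at least 10 counts in every library, with the replicate block and with the version 4 fit. All 99 values so obtained kept their sign and moved by less than 1 SD between replicates. The stricter filter gave no value for Cma1 where CCI males took part, and the fit over all 8 libraries is the one already used for the interaction. Leaving out 1 library at a time gave 72 values, none with another sign, of which 15 moved by more than 1 SD.

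For males these ran from -2.74 to -2.60 for Mcpt1l1, -2.83 to -2.49 for Cpa3 and -4.21 to -2.56 for Cma1. For females they ran from 0.60 to 0.96, 0.31 to 0.35 and 0.55 to 0.72. For naïve females over naïve males they ran from -0.87 to -0.51, -0.54 to -0.21 and -0.78 to -0.054. For CCI females over CCI males they ran from 2.71 to 2.81, 2.47 to 2.75 and 2.74 to 4.38, and for the interaction from 3.28 to 3.64, 2.82 to 3.15 and 3.20 to 4.84.

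The labels do not say what a shared replicate number marks. Deviations of same-numbered rats correlated at 0.73 between naïve and CCI males and at -0.02 to 0.14 between the other pairs of groups. What the same-numbered males shared is not known, and the main fits did not model it. With the replicate block the log2FC in males was -2.66, -2.66 and -3.22 for Mcpt1l1, Cpa3 and Cma1, and the interaction was 3.45, 2.99 and 3.86. The block changed the number of genes called from 3663 to 4478 in males, 967 to 1180 in females, 12 to 6 between naïve sexes, 180 to 68 between the sexes after CCI and 270 to 314 for the interaction, and it ended the interaction call of Nts.

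Counts of genes called in the whole table depended on the tool and the filter. Between naïve sexes the 12 calls became 1002 with DESeq2, 906 with edgeR over all 8 libraries, 262 without a filter and 0 with at least 10 counts in every library. After CCI the 180 calls between the sexes became 367 with DESeq2 and 297 without a filter, and the 270 interaction calls became 1585, 1032 and, with at least 10 counts in every library, 532. The causes were not tested. Depth limits the fold of Cma1, which had 3 and 8 counts in the CCI males.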
